A study of Mus musculus with 8 samples.

Results

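The alpha-arrestins are adaptor proteins built from a pair of arrestin-like domains followed by a tail that docks ubiquitin ligases of the NEDD4 family. The genes *Txnip* and *Arrdc1* to *Arrdc4* were taken by their symbols from the deposited gene counts, 5 of the 54752 genes listed, and all 5 were abundant enough to be tested. The family was chosen by the measured difference of *Txnip* and *Arrdc3* between stressed and control brains, so that difference is given for each of them as a description, without a test, and the tests on the family concern the sexes.

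Prenatal stress was modelled by exposing pregnant mice to chronic unpredictable mild stress (CUMS), a changing series of mild stressors, and the aim was to find transcripts altered in the fetal brain. RNA was sequenced from single wild type C57BL/6 brains (C57BL/6Slac in the study's methods) at E15.5, 4 from unstressed pregnancies (control; F36, F37, M30 and M31) and 4 from stressed pregnancies (stress; F34, F35, M28 and M29), where F marks a female and M a male. The study's sample list gives 1 litter for the control brains and 1 other litter for the stressed ones, so the effects of litter and of condition cannot be told apart, and every p-value measures the spread among littermates. That list names the tissue half_whole_brain, whereas the labels say brain. Library totals ran from 25320109 to 29105710 counts and overlapped between the groups (p = 0.886, two-sided exact permutation test). Neuronal and radial glial markers were abundant, with summed levels of 7648 ± 103 and 2104 ± 48.7 CPM (counts scaled to the size of each library) in control brains (SD, n = 4). In bulk tissue, fewer cells of a type and less RNA per cell cannot be told apart.

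TXNIP binds reduced thioredoxin and limits its activity, and it also removes glucose transporters from the cell surface. Its gene is a classical glucose sensor, switched on when the transcription factors MondoA (*Mlxip*) or ChREBP (*Mlxipl*) enter the nucleus with their partner MLX. ARRDC4 is its closest relative in structure and in the response to glucose. ARRDC3 works at endosomes, where it sorts surface receptors and integrin β4, and ARRDC1 recruits TSG101 to the plasma membrane to bud small vesicles.

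On the mouse genome mm10, *Txnip* (ENSMUSG00000038393.14) lies at chr3:96557957-96561883 on the plus strand, *Arrdc3* (ENSMUSG00000074794.10) at chr13:80883384-80896042 on the plus strand and *Arrdc4* (ENSMUSG00000042659.15) at chr7:68736995-68749241 on the minus strand. *Arrdc1* (ENSMUSG00000026972.15) occupies chr2:24925352-24935252 and *Arrdc2* (ENSMUSG00000002910.11) chr8:70835129-70839720, both on the minus strand. The 250 bases before the RefSeq start sites (GRCm38.p6, the assembly of mm10) of the 2 members that were higher after stress and of the closest relative of *Txnip* are shown 5′ to 3′ on the strand of the gene, to set their regulatory letters side by side. Capitals mark matches, on either strand, to an E-box (CACGTG), to 2 E-box-like sites (CACGNG) separated by any 5 bases, as in a carbohydrate response element, to a CCAAT box (CCAAT, or ATTGG on the other strand) and to a FoxO site (GTAAACA). No marked match overlaps another.
Txnip: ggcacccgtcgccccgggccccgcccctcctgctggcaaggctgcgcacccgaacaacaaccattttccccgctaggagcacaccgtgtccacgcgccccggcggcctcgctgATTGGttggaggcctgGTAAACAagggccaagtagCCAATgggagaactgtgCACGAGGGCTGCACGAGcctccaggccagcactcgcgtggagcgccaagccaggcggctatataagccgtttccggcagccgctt
Arrdc3: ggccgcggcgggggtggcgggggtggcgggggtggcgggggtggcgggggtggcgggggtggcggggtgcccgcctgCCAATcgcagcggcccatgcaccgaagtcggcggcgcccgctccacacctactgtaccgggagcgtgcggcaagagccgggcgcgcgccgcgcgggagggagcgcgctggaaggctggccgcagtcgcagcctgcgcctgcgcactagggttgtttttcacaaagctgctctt
Arrdc4: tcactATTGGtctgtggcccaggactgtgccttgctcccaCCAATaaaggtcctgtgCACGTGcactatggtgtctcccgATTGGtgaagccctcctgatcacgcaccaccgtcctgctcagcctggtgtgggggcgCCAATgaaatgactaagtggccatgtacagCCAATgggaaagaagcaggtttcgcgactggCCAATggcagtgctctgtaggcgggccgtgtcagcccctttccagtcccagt

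The *Txnip* window spans chr3:96557707-96557956 and overlaps an exon of Gm15441, a gene annotated on the opposite strand. It held the paired E-box-like pattern from 85 to 69 bases before the start site (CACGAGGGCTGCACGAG), the arrangement through which MondoA and ChREBP are known to act. That pattern occurred in 15 of the 32817 RefSeq promoter windows of the same length (0.0457%). A FoxO site at 121 to 115 bases before the start, a motif found in 3.16% of windows, lay between 2 CCAAT boxes, a motif found in 33.8%. The *Arrdc4* window (chr7:68749239-68749488), whose last 3 bases the count table assigns to the first exon of the gene, held 1 E-box, present in 6.02% of windows, and 6 CCAAT boxes. The *Arrdc3* window (chr13:80883134-80883383) held a single CCAAT box and none of the other marked motifs. RefSeq lists 3 start sites for *Arrdc3*, and the one used is that of the count table. Of the members not printed, *Arrdc2* had 3 CCAAT boxes and 4 GC boxes (GGGCGG, 32.7% of windows) and *Arrdc1* had 2 GC boxes. A match describes letters and not binding. The letters TATAAA, the only form of the TATA box searched (12.4% of windows), had no match in any of the windows drawn. Other forms of that box, of the paired pattern and of the FoxO site were not looked for, nor were bases further from the start sites.

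**Figure D1:**
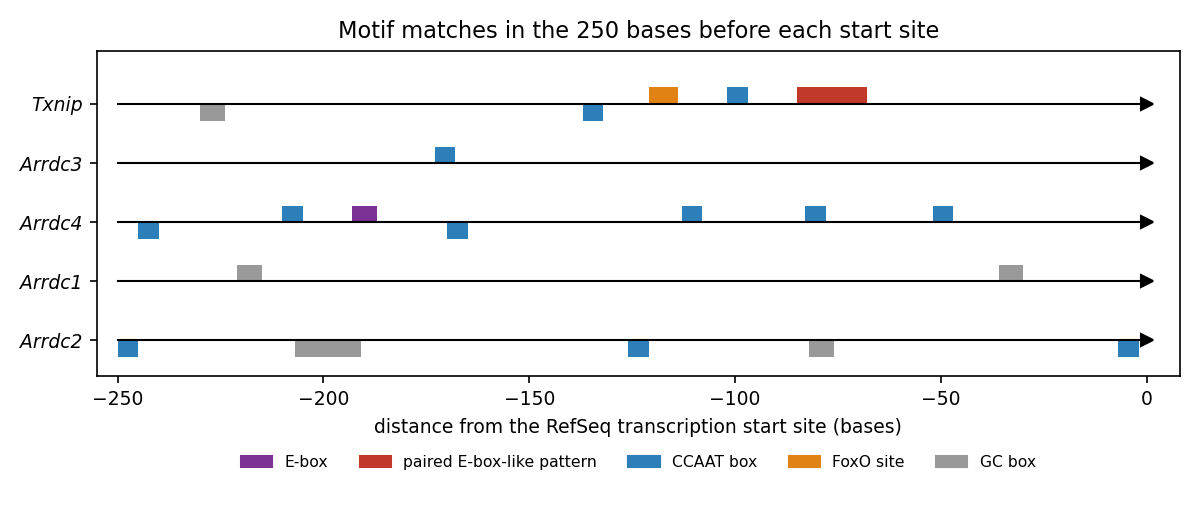
Motif matches in the 250 bases before the start site of each alpha-arrestin, with distance from the start site in bases on the x axis; boxes above a line are matches on the strand of the gene and boxes below it on the other strand. In the forms searched, *Txnip* alone of the 5 windows holds the paired E-box-like pattern and the FoxO site, and *Arrdc4* holds 6 CCAAT boxes.

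*Txnip* stood at 48.3, 49.6, 49.0 and 47.1 CPM in control brains F36, F37, M30 and M31. In the stressed brains F34, F35, M28 and M29 it stood at 66.0, 63.5, 64.8 and 65.9 CPM. Every stressed brain lay above every control brain, with a gap wider than the spread within either group. The group means were 48.5 ± 1.08 and 65.0 ± 1.18 CPM (SD, n = 4), a 1.34-fold difference or 0.42 on the log2 scale (standard error 0.03, 95% interval 0.35 to 0.49). These values rest on 1328 to 1907 counts per library. The spread among littermates, a coefficient of variation of 2.23% in control and 1.81% in stressed brains, was no wider than the 2.72% and 2.36% that counting alone gives.

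Of the 3123 exon bases of *Txnip*, 606 (19.4%) are shared with Gm15441. The counting is not stated to use strand, so read pairs falling on the shared bases cannot be assigned to one of the genes. Gm15441 itself had 7 to 18 counts per library, 0.48 ± 0.16 CPM in control and 0.41 ± 0.12 CPM in stressed brains (log2 fold change −0.22, standard error 0.31, edgeR's quasi-likelihood test, adjusted p = 0.714). The other 4 members share no exon base with another gene.

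*Arrdc3*, the endosomal adaptor, was at 70.2, 70.1, 65.1 and 70.3 CPM in control brains F36, F37, M30 and M31. In stressed brains F34, F35, M28 and M29 it was at 89.6, 93.7, 94.6 and 89.3 CPM. Here too the groups did not overlap, and control M30 lay below the other 3 controls. The means were 68.9 ± 2.56 and 91.8 ± 2.72 CPM, a 1.33-fold difference or 0.41 on the log2 scale (standard error 0.03, 95% interval 0.34 to 0.48), from 1794 to 2713 counts per library.

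*Arrdc4*, the glucose-responsive relative of *Txnip*, was at 43.2, 39.7, 45.6 and 43.4 CPM in the same 4 control brains. It was at 41.7, 42.5, 43.0 and 43.5 CPM in the stressed brains. All 4 stressed values fell inside the control range. The means were 43.0 ± 2.44 and 42.7 ± 0.77 CPM (log2 fold change −0.01, standard error 0.04, 95% interval −0.09 to 0.07).

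*Arrdc1*, the vesicle-budding member, was at 15.9, 17.3, 16.9 and 17.7 CPM in control brains. It was at 17.9, 18.6, 16.2 and 16.3 CPM in stressed brains. The groups overlapped, with the stressed females at the top and the stressed males near the bottom. The means were 17.0 ± 0.77 and 17.2 ± 1.17 CPM (log2 fold change 0.02, standard error 0.06, 95% interval −0.10 to 0.14).

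*Arrdc2*, another NEDD4 adaptor and the least abundant member, was at 11.7, 9.34, 9.65 and 9.42 CPM in control brains. It was at 9.02, 8.85, 10.9 and 8.67 CPM in stressed brains. In each group 1 brain, control F36 and stressed M28, lay above the other 3, and the ranges overlapped. The means were 10.02 ± 1.11 and 9.36 ± 1.04 CPM (log2 fold change −0.10, standard error 0.09, 95% interval −0.27 to 0.08). Its coefficient of variation, 11.1% in both groups, exceeded the counting error of 5.99% and 6.25%.

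**Figure D2:**
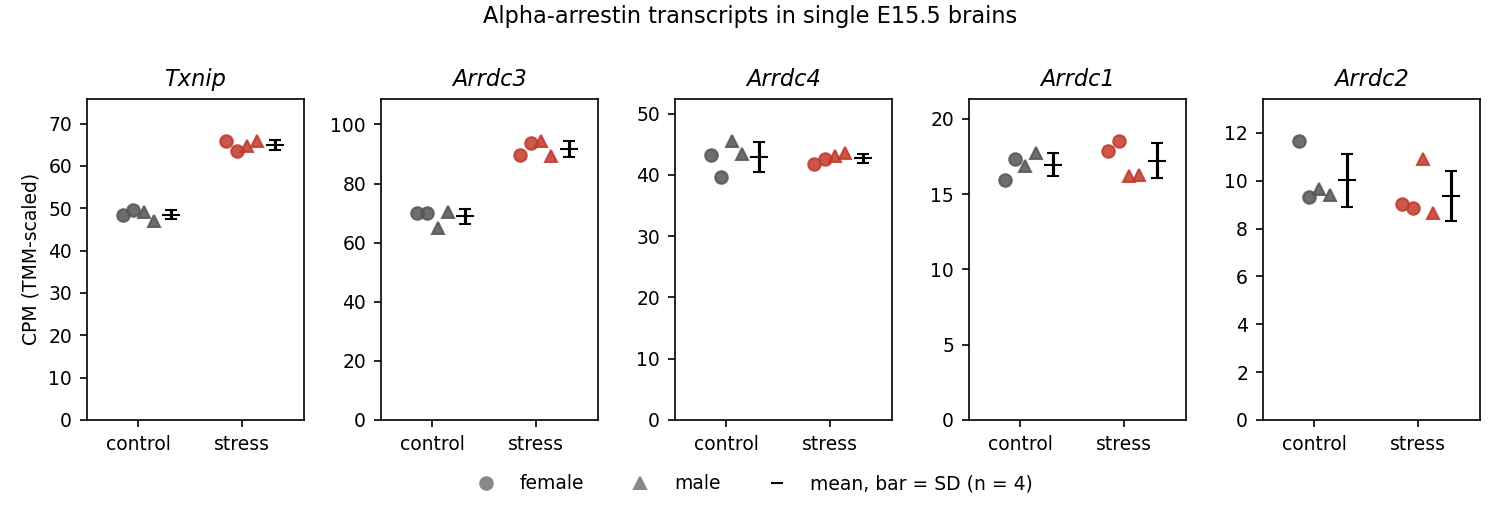
CPM of each alpha-arrestin in single brains (y axis, from 0, with its own scale for each gene), control in grey and stress in red, females as circles and males as triangles; the black mark is the mean and the bar the SD (n = 4). *Txnip* and *Arrdc3* separate the groups completely, whereas *Arrdc4*, *Arrdc1* and *Arrdc2* overlap.

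As a description only, *Txnip* and *Arrdc3* were 2 of 5 members among the genes called in the model over all genes (adjusted p under 0.05), both higher after stress, beside 13.8% of all 17865 genes called in either direction, 6.49% called higher and 7.27% called lower. The groups did not overlap for these 2 members, beside 16.4% of all genes in either direction and 8.2% with the stressed brains above. Because this contrast chose the family, nothing is read from the counts. The median log2 fold change of all genes was 0.0015. Among all genes, 813 had an absolute log2 fold change of at least that of *Txnip*.

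**Figure D3:**
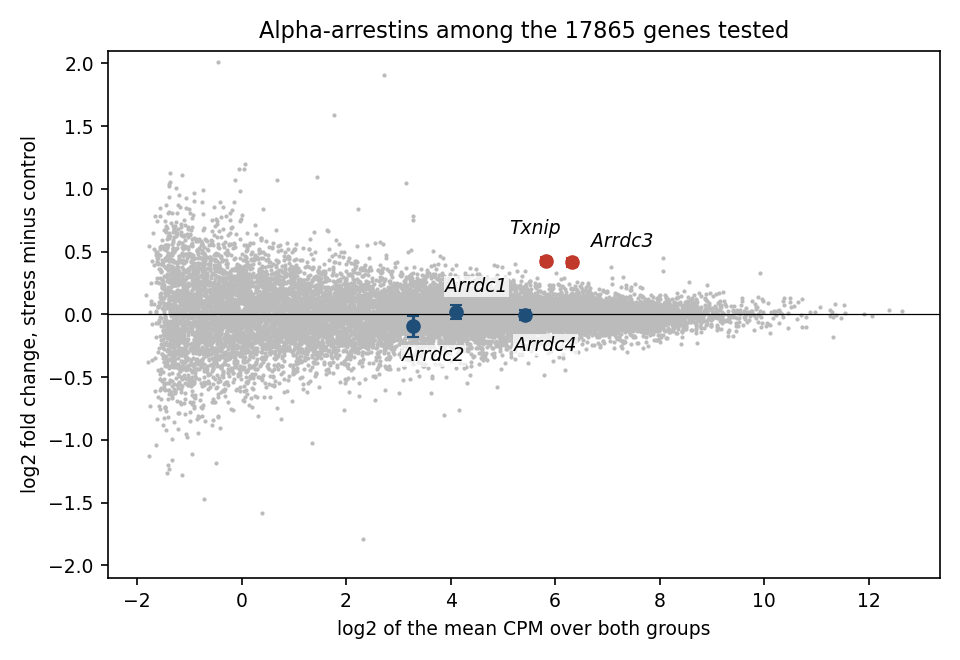
Log2 fold change, stress minus control (y axis), against log2 of the mean CPM (x axis) for the 17865 genes tested (grey), with the 5 alpha-arrestins marked and their standard errors as bars. *Txnip* (0.42) and *Arrdc3* (0.41) lie above 97.7% and 97.5% of all genes tested, and the other 3 members lie lower. The family was chosen by this contrast.

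To compare levels between genes, CPM was divided by exon length in kilobases (FPKM). In control brains *Txnip* was the most abundant at 15.53 ± 0.35 FPKM (SD, n = 4), followed by *Arrdc3* at 11.0 ± 0.41, *Arrdc4* at 10.6 ± 0.60, *Arrdc1* at 6.76 ± 0.31 and *Arrdc2* at 3.10 ± 0.34 FPKM. *Arrdc3* and *Arrdc4* overlapped in control brains and exchanged places in M30, while all other neighbours were separated in every brain. In stressed brains the order was *Txnip* at 20.8 ± 0.38, *Arrdc3* at 14.7 ± 0.43, *Arrdc4* at 10.6 ± 0.19, *Arrdc1* at 6.86 ± 0.47 and *Arrdc2* at 2.90 ± 0.32 FPKM, and no neighbours overlapped. Dividing all *Txnip* counts by the 2517 unshared exon bases gave 19.3 ± 0.43 FPKM in control and 25.8 ± 0.47 FPKM in stressed brains. This takes no counted read pair to fall on the shared bases, so these values are upper limits. The place of *Txnip* in the order was unchanged. Averaged over all brains, the FPKM of *Txnip* exceeded that of 83.3% of the genes tested, and that of *Arrdc2* exceeded 43.0%.

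The make-up of the family differed accordingly. The summed level of the 5 members was 47.0 ± 0.27 FPKM in control and 55.8 ± 0.43 FPKM in stressed brains, and *Txnip* made up 33.0 ± 0.84% and 37.3 ± 0.88% of it. The ratio of *Txnip* to *Arrdc4* was 1.39 to 1.61 in control brains and 1.93 to 2.05 in stressed brains. The ratio of *Txnip* to *Arrdc3* did not separate the groups, with means of 1.41 ± 0.07 and 1.42 ± 0.06. After the group means were removed, the log2 CPM of *Txnip* and *Arrdc3* had a Pearson correlation of −0.54 over the 8 brains. Both genes were measured in the same libraries, and the brains of each group share a litter.

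The difference between the sexes was not used in choosing the family and could be tested. By edgeR's quasi-likelihood test with Benjamini-Hochberg adjustment, none of the 5 members differed between females and males, and none had an unadjusted p under 0.05. DESeq2 also called none at either threshold. The difference nearest the threshold was that of *Arrdc4*, lower in females with a log2 fold change of −0.07 (standard error 0.04, 95% interval −0.15 to 0.01, edgeR adjusted p = 0.872). For *Txnip* it was 0.01 (95% interval −0.07 to 0.08, adjusted p = 0.987) and for *Arrdc3* 0.02 (95% interval −0.05 to 0.09, adjusted p = 0.954). Over all genes, 16 (0.0896%) were called for sex.

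*Txnip* and *Arrdc3* were higher in the stressed brains of both sexes. The log2 fold change of *Txnip* was 0.40 in females (standard error 0.05) and 0.44 in males (standard error 0.05), and that of *Arrdc3* was 0.39 and 0.44 (standard errors 0.05 and 0.05). In a model with a sex by stress interaction, the female minus male difference in response was −0.04 for *Txnip* (95% interval −0.18 to 0.10, edgeR adjusted p = 0.957) and −0.06 for *Arrdc3* (95% interval −0.19 to 0.08, edgeR adjusted p = 0.928). For *Arrdc1* the stressed females lay above and the stressed males below both controls of their own sex, a pattern of opposite sides shown by 4.69% of all genes. Its interaction was 0.22 (standard error 0.11, 95% interval −0.01 to 0.45) and missed the threshold (edgeR adjusted p = 0.793). With all 8 brains, neither edgeR nor DESeq2 called an interaction for any member or gave one an unadjusted p under 0.05. In edgeR fits that left out 1 animal, 2 members (*Arrdc1* and *Arrdc2*) had an unadjusted p under 0.05 without control F37 and 1 (*Arrdc2*) without stressed M29, and neither was called. Over all genes 1 (0.0056%) was called.

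**Figure D4:**
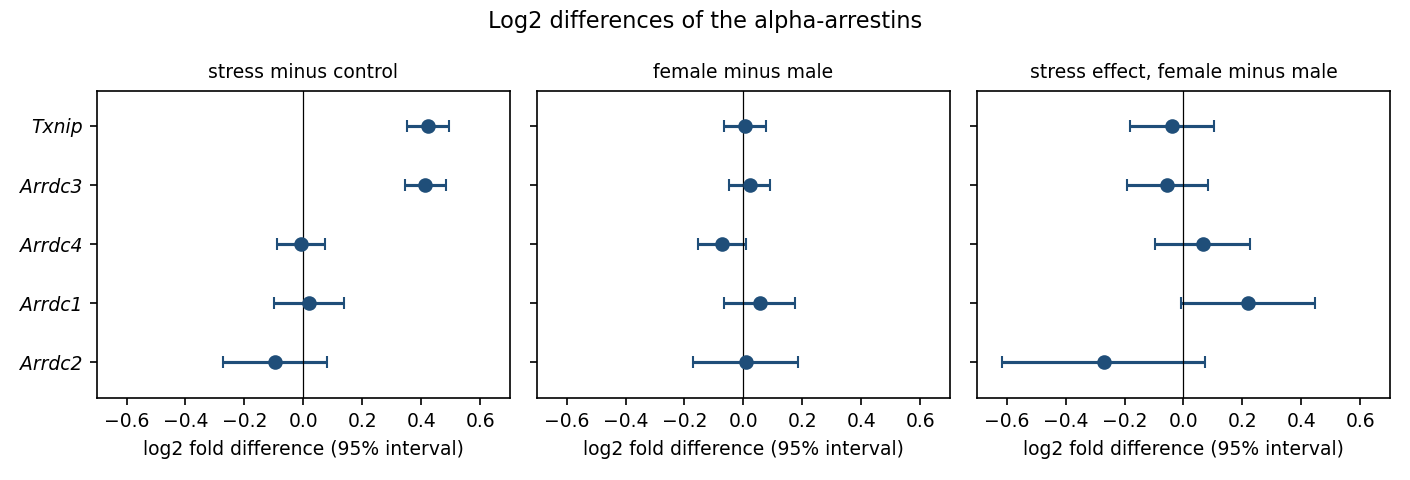
Log2 differences (x axis, points with 95% intervals) of the 5 alpha-arrestins for stress minus control, female minus male, and the stress effect in females minus that in males. The first panel is a description only, because that contrast chose the family. All intervals in the other panels include 0.

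The genes that regulate the family, work with it or answer to the same signals were described in 11 lists. The lists were chosen with earlier results of these data known, so the counts of each list are a description only. Of the 135 listed genes 124 were tested, and 11 rose and 12 fell, 18.5% against 13.8% of all genes. Over all genes, 6.49% were called higher and 7.27% lower, and these shares stand beside the counts of each list below. The median log2 fold change of the 124 genes was 0.0011, against 0.0015 for all genes. DESeq2 called 12 of these 23 genes, and 10 of the 23 kept their call with DESeq2, both other normalizations, no filter, no sex covariate and each animal left out.

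The list of glucose-responsive transcription factors also held genes of the MYC, USF and NF-Y families. Of its 13 genes, 1 rose and 2 fell (median log2 fold change 0.0015), and all of these belong to the MYC and NF-Y families. The activators named above did not pass the test: *Mlxip* was at 84.6 ± 2.59 and 88.2 ± 4.43 CPM in control and stressed brains, *Mlxipl* at 1.24 ± 0.13 and 1.46 ± 0.28 CPM, and *Mlx* at 30.9 ± 1.54 and 30.97 ± 1.06 CPM (edgeR adjusted p = 0.267, 0.475 and 0.989). *Nfyb*, a subunit of the CCAAT-binding factor NF-Y, rose by 0.14 on the log2 scale (edgeR adjusted p = 0.0044). *Myc*, which competes with MondoA for shared sites, fell by 0.24 (edgeR adjusted p = 0.000855). *Mycn* fell by 0.11 (edgeR adjusted p = 0.0222), and this call was lost in 4 of the 8 fits that each left out 1 animal.

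Of 14 tested MondoA and ChREBP target genes other than the arrestins, 1 rose and 1 fell, with a median log2 fold change of 0.03. *Hk2*, a hexokinase that traps glucose in the cell, rose from 8.37 ± 0.38 to 10.3 ± 0.79 CPM (log2 fold change 0.30, standard error 0.07, edgeR adjusted p = 0.0074). *Bhlhe40*, a transcriptional repressor, fell from 8.96 ± 0.67 to 7.18 ± 0.50 CPM (log2 fold change −0.31, standard error 0.08, edgeR adjusted p = 0.0097).

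*Txnip* is also a target of FoxO factors and of glucocorticoids, the stress hormones. Of 7 tested FoxO and steroid receptor genes, none rose and 2 fell (median −0.08). *Nr3c1*, the glucocorticoid receptor, fell by 0.21 and *Nr3c2*, the mineralocorticoid receptor, by 0.37 on the log2 scale (edgeR adjusted p = 0.0143 and 0.0211), and DESeq2 did not call them (adjusted p = 0.0555 and 0.0955). *Foxo1* and *Foxo3* had log2 fold changes of −0.08 and 0.07 (edgeR adjusted p = 0.336 and 0.206).

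Of 15 FoxO target genes 1 fell (median 0.01). It was *Irs2*, an insulin receptor substrate, by 0.12 on the log2 scale (edgeR adjusted p = 0.0327, DESeq2 adjusted p = 0.0773). Of 13 glucocorticoid-induced genes, 12 had a log2 fold change below 0 (median −0.04, beside 0.0015 for all genes). Only 1 was called, *Nfkbia*, the NF-κB inhibitor, which fell by 0.16 (edgeR adjusted p = 0.0442). The call for *Nfkbia* was lost with DESeq2 (adjusted p = 0.155) and in all 8 fits that left out 1 animal. The classical glucocorticoid reporters *Fkbp5* and *Tsc22d3* (also called *Gilz*) stood at −0.01 and −0.04 (edgeR adjusted p = 0.869 and 0.658).

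In the thioredoxin system, the target of TXNIP, 2 of 14 genes rose and 1 fell (median 0.02). *Txn1*, the thioredoxin bound by TXNIP, was at 109.5 ± 1.57 CPM in control and 107 ± 6.26 CPM in stressed brains, and its reductase *Txnrd1* at 194 ± 2.17 and 199 ± 2.14 CPM (edgeR adjusted p = 0.578 and 0.465). *Prdx4*, a peroxiredoxin of the endoplasmic reticulum, rose by 0.21 (edgeR adjusted p = 0.0040). *Txnrd3* rose by 0.19 and *Prdx5*, a mitochondrial and peroxisomal peroxiredoxin, fell by 0.12 (edgeR adjusted p = 0.0426 and 0.0426), and DESeq2 called neither (adjusted p = 0.124 and 0.0785).

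Of 6 tested other binding partners of TXNIP, *Kpna2*, a nuclear import receptor, rose by 0.16 (edgeR adjusted p = 0.0015). *Map3k5*, the stress kinase ASK1 that thioredoxin holds inactive, fell by 0.26 (edgeR adjusted p = 0.038), without a DESeq2 call (adjusted p = 0.124). The median of these 6 genes was 0.04.

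Among 14 genes of glucose entry, 2 fell and none rose (median 0.01). *Slc2a3*, the neuronal glucose transporter GLUT3, fell from 65.3 ± 2.90 to 55.9 ± 1.48 CPM (log2 fold change −0.23, standard error 0.04, edgeR adjusted p = 0.000134). *Hk1*, the main brain hexokinase, fell by 0.14 on the log2 scale (edgeR adjusted p = 0.0024). *Slc2a1*, the transporter GLUT1 whose surface level TXNIP limits, was at 66.3 ± 3.24 and 61.8 ± 1.86 CPM (log2 fold change −0.10, edgeR adjusted p = 0.0689) and missed the threshold.

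The NEDD4 family of ligases and their adaptors, which the PPxY tails of alpha-arrestins recruit, had 2 of 11 genes higher and none lower (median −0.03). *Wwp2* rose from 52.0 ± 1.36 to 58.7 ± 2.35 CPM (log2 fold change 0.17, edgeR adjusted p = 0.0024). *Nedd4*, at 1299.8 ± 25.03 CPM in control and 1367 ± 12.01 CPM in stressed brains, rose by 0.07 (edgeR adjusted p = 0.0471), a call lost in all 8 fits without 1 animal, with both other edgeR normalizations and without the sex covariate, but kept by DESeq2 (adjusted p = 0.0103). *Itch*, the ligase that degrades TXNIP, had a log2 fold change of 0.01 (edgeR adjusted p = 0.908).

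Among other proteins with the arrestin fold, 1 of 7 tested genes fell (median −0.02). It was *Arrb2*, β-arrestin 2, by 0.11 (edgeR adjusted p = 0.0277, DESeq2 adjusted p = 0.067). *Arrdc5*, the remaining alpha-arrestin by sequence, had 0 to 1 count per library and was not tested. Of 10 tested cargo and vesicle partners, 4 rose and none fell (median 0.08). *F2r*, the thrombin receptor PAR1 that ARRDC3 sorts to lysosomes, rose by 0.13 (edgeR adjusted p = 0.0056). *Notch1* (0.13), *Vps4b* (0.12) and *Tsg101* (0.08), the last of which is the partner of ARRDC1 in vesicle budding, had edgeR adjusted p-values of 0.0399, 0.0357 and 0.0423, and DESeq2 called none of them (adjusted p = 0.0749, 0.0839 and 0.058).

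**Figure D5:**
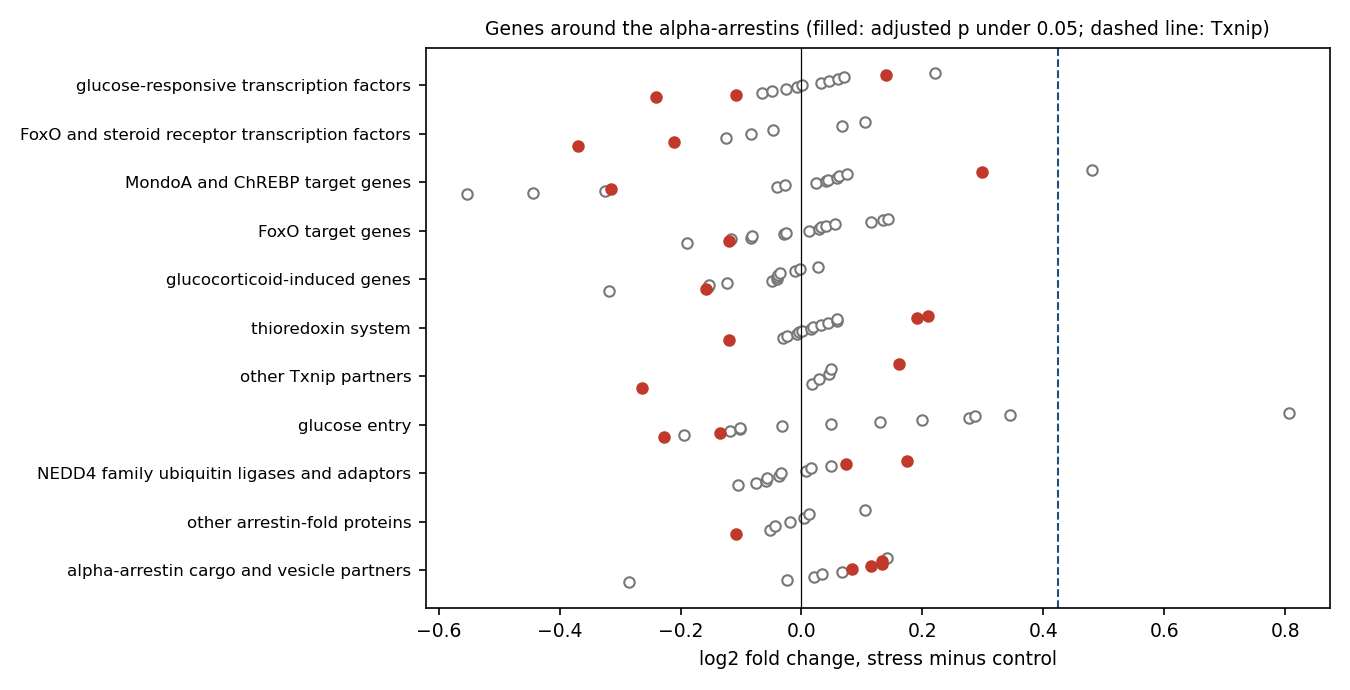
Log2 fold change, stress minus control (x axis), of each tested gene in the 11 lists (y axis), filled where edgeR's adjusted p was under 0.05; the dashed line marks *Txnip* at 0.42. Of the 124 genes, 11 filled points lie to the right of 0 and 12 to the left, and all filled points lie left of the *Txnip* line.

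The genes whose log2 CPM ran most like that of *Txnip* over the 8 brains, among 10465 genes with a mean of at least 10 CPM, were *Pole* (Pearson r 0.99), *Tipin* (0.99), *Insig1* (0.99), *Zfp41* (0.99) and *Rcbtb1* (0.99). *Pole* encodes the catalytic subunit of DNA polymerase epsilon, *Tipin* a protein of the replication fork and *Insig1* a sterol sensor. The points fall into the groups compared, so these values mostly carry the group difference. With the group means removed r was 0.83 for *Pole*, 0.71 for *Tipin*, 0.44 for *Insig1*, 0.39 for *Zfp41* and 0.70 for *Rcbtb1*. The genes were picked by r over the same brains, so these values are a description only. The fold changes of the 5 genes were smaller than that of *Txnip*, at 0.31, 0.29, 0.22, 0.17 and 0.17 on the log2 scale. *Arrdc3* ranked 50 on this measure (0.96).

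The genes most like *Arrdc3* were *Bms1* (r 0.99), *Exoc1* (0.97), *Cog3* (0.97), *Rap2b* (0.97) and *Polr2b* (0.97). *Bms1* acts in ribosome assembly, *Exoc1* in exocytosis, *Cog3* in Golgi transport and *Polr2b* is a subunit of RNA polymerase II. Their log2 fold changes of 0.05 to 0.11 were well below that of *Arrdc3*. With the group means removed r was 0.84 for *Bms1*, 0.89 for *Exoc1*, 0.71 for *Cog3*, 0.71 for *Rap2b* and 0.08 for *Polr2b*, again as a description only.

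Markers of other cell types were set beside these differences, because the whole tissue was sequenced. The 8 dividing-cell markers summed to 531 to 576 CPM in control and 606 to 689.6 CPM in stressed brains (1.17-fold, exact permutation test, two-sided, p = 0.0286, the smallest p that 4 against 4 allows; adjusted over 9 lists, 0.129), and all 8 rose in the model over all genes. The 9 endothelial markers summed to 179 to 198 CPM in control and 161 to 172 CPM in stressed brains (0.89-fold, same exact p = 0.0286, adjusted 0.129). Of the 8 tested, 5 fell. Neuronal markers, at 7648 and 7473 CPM (exact p = 0.114), had 5 of 10 lower, and radial glial markers, at 2104 and 2142 CPM (exact p = 0.257), had 4 of 10 higher. The sums for pericytes, microglia, erythroid cells, meningeal fibroblasts and choroid plexus overlapped between the groups, with exact p-values of at least 0.371, but single markers moved. The 7 meningeal fibroblast markers summed to 45.8 to 56.8 CPM in control and 44.96 to 86.7 CPM in stressed brains. Of the 6 tested, the collagens *Col1a1*, *Col1a2* and *Col3a1* rose by 1.59, 0.79 and 1.04 on the log2 scale and *Pdgfra* fell by 0.31 (edgeR adjusted p = 0.0073, 0.0125, 0.0025 and 0.000187). The groups overlapped for each of these collagens, and the stressed brains varied widely. *Col1a1* was at 1.67 ± 1.10 CPM in control and 5.16 ± 4.53 CPM in stressed brains. The 10 erythroid markers summed to 366 to 415 CPM in control and 373 to 388 CPM in stressed brains. Of the 9 tested, the embryonic globins *Hba-x* and *Hbb-y* rose by 1.09 and 0.84 and *Hbb-bs* fell by 0.14 (edgeR adjusted p = 2.2e-05, 0.00012 and 0.0098). The 7 choroid plexus markers summed to 4.41 to 13.7 CPM in control and 4.73 to 35.3 CPM in stressed brains (1.99-fold between the means). Of the 6 tested, *Ttr* was called higher by 1.91 (edgeR adjusted p = 0.0072). Its groups overlapped, at 2.65 ± 2.93 CPM in control and 10.6 ± 13.2 CPM in stressed brains, so the SD exceeded the mean in both. Calls of single markers were not followed under the alternative settings. None of the pericyte and microglial markers was called by edgeR or had an unadjusted p under 0.05 in it. No list had a marker at 0 in all brains. The part of these cell types in the differences of *Txnip*, *Arrdc3* and the lists was not tested.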

How the data were processed

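RNA of 8 E15.5 brains (4 control, 4 stress) was analysed. The authors trimmed the reads, used TopHat2 2.1.1 for alignment to mm10, and assigned read pairs to GENCODE exons with featureCounts 1.6.3. What they deposited is the raw count of every gene in every brain; no option for strand or overlapping genes is stated. Gene symbols were matched for 54723 of 54752 identifiers. Counts were filtered with filterByExpr (minimum count 10, by group), scaled by TMM and tested by the quasi-likelihood functions glmQLFit and glmQLFTest (edgeR 4.0.16, limma 3.58.1, R 4.3.3) with sex and condition, or their interaction, in the model. A gene was called at a Benjamini-Hochberg adjusted p under 0.05 over 17865 genes. Standard errors were derived from the F value. FPKM is TMM-scaled CPM per kilobase of exon. The study's model also held a batch term, which the labels do not give for these libraries.

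The 5 members and the gene lists were chosen with earlier results of these data known. Text names were taken by rule: the members, up to 4 genes per list and direction by smallest p, 16 listed regulators and partners, the 5 genes most like *Txnip* and *Arrdc3*, and genes sharing exon bases with a member. Marker sums were compared by exact permutation of the 8 brains. Promoter windows came from RefSeq (all 5 members matched); both strands were searched. Alternatives were DESeq2 1.42.0, RLE and upper-quartile scaling, unscaled library totals for levels, no filter, no sex covariate, each sex alone and each animal left out; *Txnip* per unshared exon base was added after seeing the data. The tests were tested on simulated data. Protein sequences were not used here, and 1 listed gene is not reported here.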

Additional observations from a re-analysis of the deposited data

Results flagged for a closer look

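In groups of 4, a sample was set apart when its gap to the nearest other exceeded Dixon's critical share of the range, which chance gives in about 1 group in 20, and 4 of the 28 groups checked had one. For *Arrdc2*, control F36 stood apart at 11.7 CPM and stressed M28 at 10.9 CPM. For *Arrdc3*, control M30 stood apart at 65.1 CPM. For the summed meningeal fibroblast markers, 1 control brain stood apart at 56.8 CPM. The stress response of *Arrdc1* went in opposite directions in the sexes in every brain, with a difference of 0.22 on the log2 scale that missed the threshold (edgeR's quasi-likelihood test, adjusted p = 0.793).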

How the results depend on the processing

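No paired analysis was possible because the 2 groups share no replicate numbers. The stress contrast chose the family in these same brains, so rerunning it for *Txnip* and *Arrdc3* is a description and no check on it. *Txnip* and *Arrdc3* were higher under every alternative run, by 0.41 to 0.44 and 0.38 to 0.43 on the log2 scale with each animal left out. The same ranges were −0.04 to 0.01 for *Arrdc4*, −0.03 to 0.06 for *Arrdc1* and −0.20 to −0.0034 for *Arrdc2*. The value of *Arrdc1* was 0.13 in females alone and −0.092 in males alone. Among 120 other estimates of the sex and interaction terms of the members, from fits that share brains, none was called and the smallest adjusted p was 0.618.

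Over all genes, DESeq2 called 748 higher after stress and 2 lower for the interaction, against 1160 and 1 by edgeR. Without a filter, sex gave 41 higher and 23 lower and the interaction 16 and 21. Females alone gave 295 higher and 407 lower after stress, and males alone 664 higher, with fewer brains in each fit. For the gene lists together, DESeq2 gave 7 higher and 5 lower, females alone 1 and 4, and males alone 3 lower. With each animal left out, the counts after stress ran from 736 to 1057 higher and 854 to 1308 lower, the lowest of both without stressed M29, those for sex from 5 to 15 and 5 to 8, those for the interaction from 0 to 4 and 0 to 5, and those of the lists from 6 to 11 and 7 to 11. The list counts were lowest without control F36 (6 higher) and without control F37 (7 lower). The exact p of the endothelial sum was 0.0571 without any 1 stressed brain, with a difference of −22.2 to −18.6 CPM.

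With 4 brains and 1 litter per group, these data limit statements to these litters. Low counts limit *Arrdc5*, which could not be tested, and shared bases limit the level of *Txnip*.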
